A study of Rattus norvegicus with 9 samples.

Results

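The genes described here are those of the major histocompatibility complex (MHC) class II presentation machinery in the rat hippocampus: the chain genes RT1-Da, RT1-Db1, RT1-Ba and RT1-Bb, the invariant chain gene Cd74 and the transcriptional coactivator gene Ciita. They were selected by symbol, and all 6 were found among the 18733 genes of the tables. Messenger RNA was sequenced from the hippocampus of male rats in 3 groups of 3 libraries. The taVNS rats had cognitive impairment after MCAO (occlusion of the middle cerebral artery, an operation that models ischaemic stroke) and then 14 days of transcutaneous auricular vagus nerve stimulation, an electrical stimulation applied to the skin of the ear. The PSCI rats (post-stroke cognitive impairment) had the same operation and impairment and 2 weeks of ordinary feeding, and the control rats had ordinary feeding. An operated rat entered the study when both its spontaneous alternation rate and its cognitive index fell short of a cutoff stated as 20% of the mean in controls, and entry into the taVNS or the PSCI group was random. The labels name no strain, no age and no hemisphere, and mention neither a sham operation of the controls nor a sham stimulation of the PSCI rats. The protocol describes tissue of each animal, which it calls a mouse where every label gives the rat. Each library was therefore taken as 1 rat, and p-values measure only the spread between these samples.

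MHC class II molecules are pairs of an alpha and a beta chain that carry peptides of ingested or endocytosed proteins to the cell surface, where CD4 T cells read them. In the rat, RT1-Da and RT1-Db1 encode the alpha and beta chains of RT1.D, the counterpart of human HLA-DR, and RT1-Ba and RT1-Bb those of RT1.B, the counterpart of HLA-DQ. The invariant chain (Cd74) escorts the pairs through the cell and blocks their groove until it is degraded, and RT1-DM then exchanges its last fragment for peptides. Ciita does not bind DNA itself: it docks on the RFX, CREB and NF-Y proteins that occupy the X and Y boxes of class II promoters, and interferon gamma is its best known inducer. In the resting brain, class II is sparse on microglia and is carried mainly by macrophages and dendritic cells at the borders.

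The X and Y boxes are shown because they are the promoter feature through which Ciita acts on these genes. The sequences are RefSeq promoters of assembly GRCr8, given 5′ to 3′ along each gene, with the letters of the X search (GNNACNG) and of the Y search (GATTGG) in capitals. The assembly is newer than the mRatBN7.2 build of the expression tables, so these coordinates belong to the promoters alone. The stretches lie on chromosome 20, that of RT1-Da at chr20:4515311-4515384 on the plus strand, RT1-Db1 at chr20:4560224-4560296 on the minus strand, RT1-Ba at chr20:4576959-4577032 on the plus strand, RT1-Bb at chr20:4604161-4604233 on the minus strand, and RT1-DMa, a gene of the peptide exchanger, at chr20:4712381-4712454 on the minus strand.
RT1-Da: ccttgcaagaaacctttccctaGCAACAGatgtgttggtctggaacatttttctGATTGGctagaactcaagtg
RT1-Db1: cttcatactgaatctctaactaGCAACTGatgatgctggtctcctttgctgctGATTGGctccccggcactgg
RT1-Ba: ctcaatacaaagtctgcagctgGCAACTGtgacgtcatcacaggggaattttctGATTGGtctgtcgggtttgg
RT1-Bb: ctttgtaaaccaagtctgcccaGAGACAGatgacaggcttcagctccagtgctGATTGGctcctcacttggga
RT1-DMa: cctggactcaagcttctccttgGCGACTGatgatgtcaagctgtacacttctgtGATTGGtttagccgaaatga

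In RT1-Da, RT1-Ba and RT1-DMa the Y letters began 32 bases after the X letters began, and in RT1-Db1 and RT1-Bb 31 bases after. Of the 6 class II genes, 5 were in the promoter table, and 4 of these held such a pair. Ciita and RT1-DMb were not matched. The promoter of Cd74 held the X letters but not GATTGG. Of the nonclassical genes RT1-DMa, RT1-DOa and RT1-DOb, RT1-DOb held a pair 29 bases apart as well, and RT1-DOa held both sets of letters but no pair. The search covered both strands of the 250 bases before each start, with 25 to 40 bases from the start of X to the start of Y. Over 33469 promoters, 82.1% held the X letters, 13.3% the Y letters and 0.977% the pair. The letters and the spacing were chosen after these promoters had been read, so the shares are a description, and a match is not evidence of binding.

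The libraries held 13747389 to 15415694 counts. The floor used for a count of 0 was 3 counts, or 0.195 to 0.218 CPM by the library totals before scaling. CPM is the unit of counts relative to the library total, and the CPM of genes given below are after TMM scaling. Intervals and floors cover counting error only. All 7 marker genes of hippocampal neurons were detected in every library. Their summed level was 2391 to 3243 CPM in taVNS, 2989, 1776 and 2823 CPM in PSCI, and 2587 to 2856 CPM in control. None of them was called in the comparisons of PSCI with control and of taVNS with PSCI. All of them but Fibcd1 were lowest in replicate 2 among the PSCI libraries. Neurod6, for 1, had 225, 46.6 and 190 CPM in PSCI. The lack of a call therefore does not show that the libraries were alike in composition. Meningeal and fibroblast markers were high in taVNS replicate 3 (398 CPM summed over 8 genes) and PSCI replicate 2 (309 CPM), against 54.9 to 94.8 CPM in the remaining libraries.

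RT1-Da, Cd74 and the other class II chains were high in PSCI replicates 2 and 3, low in PSCI replicate 1 and in the controls, and between these levels in most taVNS libraries. RT1-Da and Cd74 rose in PSCI against control, by 18.0-fold and 7.03-fold, and the other 3 genes tested did not pass the test. No class II gene passed the test in taVNS against PSCI or in taVNS against control. In bulk tissue, more cells that express these genes and more RNA per cell cannot be told apart. Ciita had too few counts to be kept for the main test.

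RT1-Da, the alpha chain of RT1.D, had 1.68, 1.33 and 3.62 CPM in the taVNS libraries, 0.818, 10.7 and 13.2 CPM in the PSCI libraries, and 0.345, 0.496 and 0.514 CPM in the control libraries. PSCI replicates 2 and 3 were the highest of the 9 libraries, PSCI replicate 1 lay below every taVNS library, and all PSCI and all taVNS libraries lay above all controls. RT1-Db1, its beta-chain partner, had 1.40, 1.47 and 2.32 CPM in taVNS, 0.341, 6.69 and 9.33 CPM in PSCI, and 0.414, 0.425 and 1.32 CPM in control. Here PSCI replicate 1 was the lowest of all 9 libraries, and the taVNS libraries again lay above all controls.

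RT1-Ba, the alpha chain of RT1.B, had 1.33, 0.979 and 3.55 CPM in taVNS, 0.205 (3 counts), 7.33 and 9.07 CPM in PSCI, and 0.414, 0.850 and 0.661 CPM in control. Its order over the libraries resembled that of RT1-Db1, with PSCI replicate 1 lowest and all taVNS libraries above all controls. RT1-Bb, its beta chain, had 0.280, 0.560 and 2.46 CPM in taVNS, 0.205 (3 counts), 5.74 and 5.09 CPM in PSCI, and 0.966, 0.850 and 0.367 CPM in control. RT1-Bb was the chain in which taVNS and control overlapped: of the taVNS libraries, replicate 3 alone lay above the controls.

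Cd74, the invariant chain, had 11.1, 9.58 and 11.6 CPM in taVNS, 3.07, 27.7 and 35.6 CPM in PSCI, and 3.66, 2.98 and 2.79 CPM in control. The taVNS libraries lay close together and all above the controls, while PSCI replicate 1 lay among the controls. Ciita, the coactivator, had 4, 3 and 4 counts in taVNS, 4, 42 and 17 counts in PSCI, and 1, 3 and 4 counts in control. Its counts stood above those of the other libraries in PSCI replicates 2 and 3 only, the same libraries in which the chains were high.

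**Figure D1:**
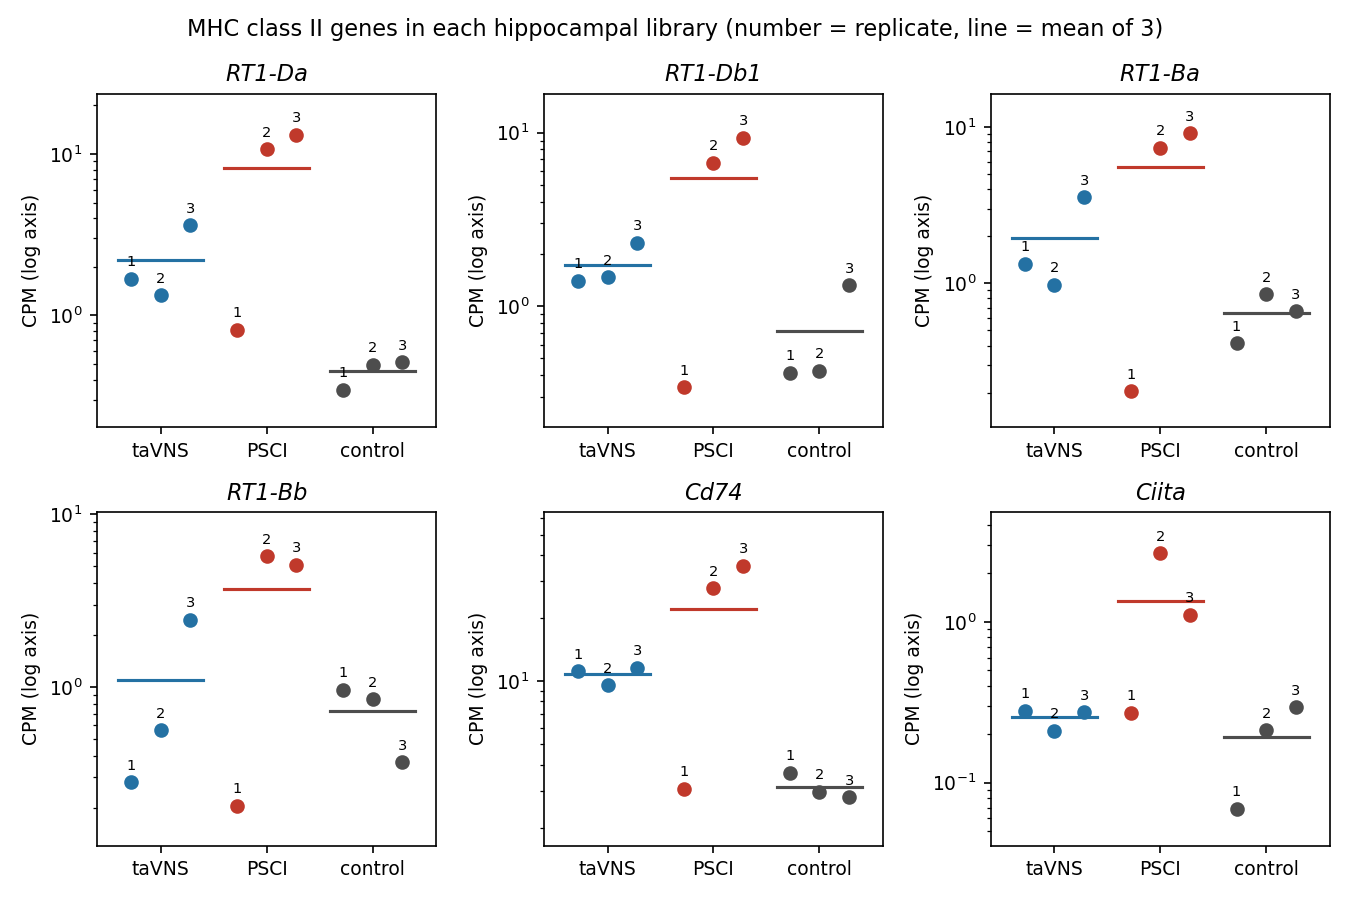
Level of each class II gene in each library, in CPM on a log axis, by group. Points are libraries with their replicate number and lines are means of 3. PSCI replicate 1 lay far below PSCI replicates 2 and 3 in every panel, and for Cd74 its 3.07 CPM lay between control libraries.

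Levels of different genes were compared per transcript length, in the deposited RPKM (reads scaled for length and depth). Cd74 had the highest RPKM in each group, with 10.7 ± 1.5 in taVNS, 23.5 ± 17.9 in PSCI and 3.05 ± 0.409 in control (mean ± SD, n = 3). In taVNS and PSCI it was followed by RT1-Da (2.42 ± 1.38 and 9.21 ± 7.27 RPKM), RT1-Ba (2.32 ± 1.68 and 6.73 ± 5.68), RT1-Db1 (1.74 ± 0.531 and 5.60 ± 4.69) and RT1-Bb (0.890 ± 0.975 and 3.05 ± 2.53). In control the order of the chains was RT1-Ba (0.747 ± 0.256 RPKM), RT1-Db1 (0.710 ± 0.520), RT1-Bb (0.573 ± 0.248) and RT1-Da (0.480 ± 0.104). Neighbouring chains in these orders differed by less than the larger of their SDs in all 3 groups, and so did Cd74 and RT1-Da in PSCI and RT1-Bb and Ciita in taVNS. Ciita was lowest throughout, with 0.0533 ± 0.0115 RPKM in taVNS, 0.293 ± 0.264 in PSCI and 0.0400 ± 0.0265 in control. The log2 ratios of group means from RPKM lay close to those from counts: for RT1-Da in PSCI over control the ratio was 4.26 from RPKM and 4.19 from CPM, and for Cd74 it was 2.95 and 2.82.

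The PSCI rats are the group in which the question is what differs in the hippocampus after stroke with impairment. RT1-Da was 4.17 ± 0.924 higher in PSCI than in control on the log2 scale (± SE; adjusted p = 0.0233, edgeR quasi-likelihood test with Benjamini-Hochberg adjustment over 14840 genes), and higher in 3 of 3 PSCI libraries than in every control. Cd74 was 2.81 ± 0.690 higher (adjusted p = 0.0346, edgeR), in 2 of 3 PSCI libraries. RT1-Ba (3.10 ± 1.03, adjusted p = 0.0968), RT1-Db1 (2.92 ± 0.939, adjusted p = 0.0860) and RT1-Bb (2.32 ± 1.04, adjusted p = 0.202) did not pass in edgeR, with higher values in 2 of 3 PSCI libraries each. In all, 2 of the 5 class II genes tested were called, against 9.85% of all genes tested, and their median log2 change was 2.92, against a median near 0 over all genes. RT1-Da was the 1 gene of the 6 with all PSCI libraries above all controls, a separation seen in 16.2% of all genes. DESeq2 called 4 of the 5, against 15.2% of all genes, and limma-voom called none of them, against 7.80% of all genes, with adjusted p = 0.207 for RT1-Da and 0.263 for Cd74.

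Both calls depended on single libraries. RT1-Da lost its call without any 1 control library (adjusted p = 0.0846 to 0.0909) and without PSCI replicate 3 (0.0686), and Cd74 without any 1 control (0.0931 to 0.128), any 1 taVNS library (0.0509 to 0.0557), PSCI replicate 2 (0.0601) or PSCI replicate 3 (0.105), all in edgeR. PSCI replicate 1 was singled out by its low levels of these same genes, so the fit without it is a description. In that fit all 5 class II genes of the main test were called, against 15.0% of all genes. The changes were then 4.70 for RT1-Da (adjusted p = 0.000399), 3.47 for RT1-Db1 (0.00212), 3.66 for RT1-Ba (0.00287), 2.87 for RT1-Bb (0.0314) and 3.33 for Cd74 (6.27e-05) on the log2 scale, in edgeR. Ciita passed the filter in that fit only through its counts in PSCI replicates 2 and 3, so its value there (3.26, adjusted p = 0.00827, edgeR) is a description and not a further call. In the fit of all 9 libraries with no filter on low counts, Ciita was 2.77 ± 0.800 higher in PSCI than in control, with adjusted p = 0.0657 in edgeR.

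The spread within PSCI was wide for these genes. Between the highest and lowest PSCI library, log2 CPM differed by 3.48 for Cd74, 3.80 for RT1-Da, 4.10 for RT1-Bb, 4.31 for RT1-Db1 and 4.75 for RT1-Ba, against a median of 0.412 over all genes. A range of 3.48 or more was found in 111 of 14840 genes (0.748%). That cutoff was the range of Cd74 itself, so the share is a description. RT1-Da was 13.1 times as high in PSCI replicate 2 as in PSCI replicate 1 (95% exact binomial interval 7.30 to 25.8) and 16.1 times as high in replicate 3 (9.03 to 31.7). Cd74 was 9.04 times (6.64 to 12.6) and 11.6 times (8.55 to 16.1) as high, so these differences exceeded counting error. The labels give nothing that sets this rat apart from the other PSCI rats.

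The comparison of taVNS with PSCI asks what differs after stimulation in rats with the same operation and the same entry cutoff. Every class II gene had a lower mean in taVNS, and none passed the test: RT1-Da was at -1.89 ± 0.780 on the log2 scale (3.72-fold lower, adjusted p = 0.205, edgeR), RT1-Bb at -1.73 ± 0.996 (0.358), RT1-Db1 at -1.65 ± 0.860 (0.310), RT1-Ba at -1.5 ± 0.926 (0.396) and Cd74 at -1.04 ± 0.631 (0.384). The count was 0 of 5, against 5.75% of all genes. At an unadjusted p under 0.05 in edgeR it was 1 of 5, and 3132 of 14840 genes. DESeq2 and limma-voom also called 0 of 5, against 10.4% and 3.23% of all genes. In all 6 genes the taVNS libraries lay below PSCI replicates 2 and 3, and the groups overlapped through PSCI replicate 1. The PSCI libraries were told apart by these same genes, and the share of all genes with this order was not computed. PSCI replicate 1 was the lowest PSCI library in 39.9% of all genes tested. Of the alternative settings, only the fit without PSCI replicate 1 called any of the 5 tested. It called 4 of them, against 11.3% of all genes. That library was singled out by its low levels of these same genes, so the values without it are a description. The values were then -2.43 for RT1-Da (adjusted p = 0.00516), -2.20 for RT1-Db1 (0.0150), -2.06 for RT1-Ba (0.0299) and -1.55 for Cd74 (0.00104), while RT1-Bb (-2.28) had adjusted p = 0.0742 in edgeR. Ciita, admitted by its PSCI counts as above, stood at -2.85 (adjusted p = 0.0147, edgeR), again a description.

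In taVNS against control, RT1-Da stood at 2.27 ± 0.938 and Cd74 at 1.77 ± 0.683 on the log2 scale, followed by RT1-Ba at 1.60 ± 1.05, RT1-Db1 at 1.26 ± 0.958 and RT1-Bb at 0.59 ± 1.09, all with adjusted p = 1 in edgeR. None of the class II genes was called, and neither was any other gene (0.0% of all genes); at an unadjusted p under 0.05 there were 2 of the 5, RT1-Da and Cd74, and 557 of 14840 genes. DESeq2 called 9 genes (0.0606%) and limma-voom 0 in this comparison, none of them a class II gene. All 3 taVNS libraries lay above all 3 controls for RT1-Da, RT1-Db1, RT1-Ba and Cd74, that is 4 of the 6, against 5.74% of all genes. This comparison and the other 2 share libraries, so their values are given side by side and are not independent of each other.

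**Figure D2:**
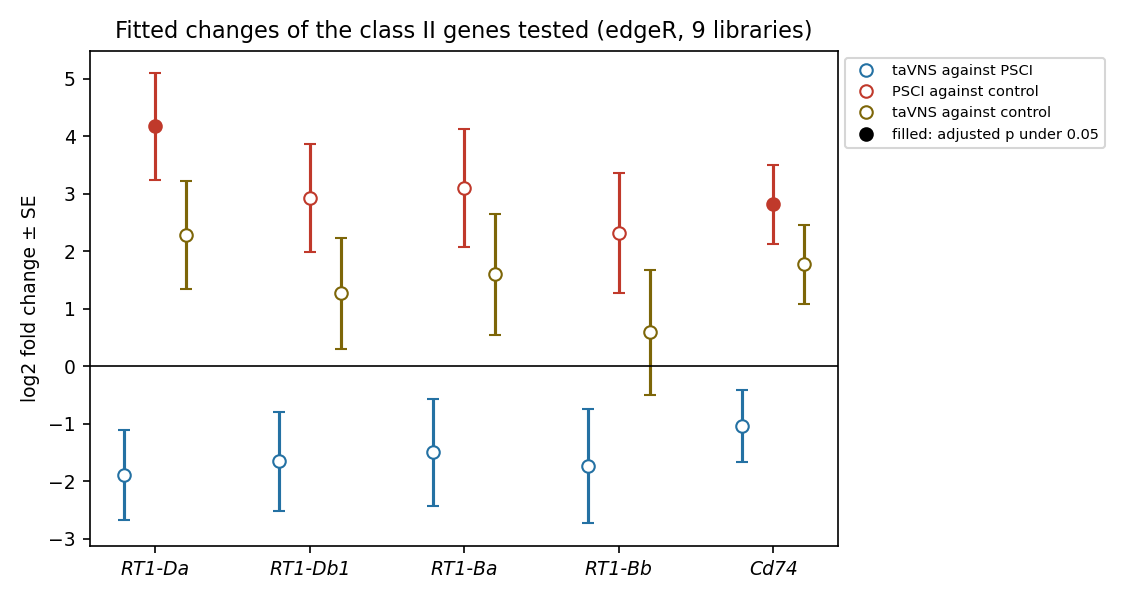
Log2 fold change with its standard error for the 5 class II genes tested, in the 3 comparisons, from the fit of 9 libraries. Filled points, RT1-Da and Cd74 in PSCI against control, passed an adjusted p of 0.05; the taVNS against PSCI values lie between -1.89 and -1.04 and none passed.

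The summed RPKM of the 4 chains was 5.16, 4.36 and 12.6 in taVNS, 1.63, 33.6 and 38.6 in PSCI, and 1.99, 2.62 and 2.92 in control. Cd74 was 2.16, 2.06 and 0.942 times that sum in taVNS, 1.92, 0.915 and 0.95 times in PSCI, and 1.77, 1.09 and 0.952 times in control. The libraries with the most chain RNA, PSCI replicates 2 and 3 and taVNS replicate 3, had ratios near 1, as did control replicates 2 and 3, while taVNS replicates 1 and 2 had about as much Cd74 as taVNS replicate 3 with less chain RNA. Within a pair, RT1-Da was 1.31, 0.979 and 1.69 times RT1-Db1 in taVNS, 2.62, 1.74 and 1.54 times in PSCI, and 0.900, 1.26 and 0.420 times in control, in RPKM. Several of these ratios rest on few counts: PSCI replicate 1 held 23 counts over the 4 chains, and the control libraries 31 to 39.

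**Figure D3:**
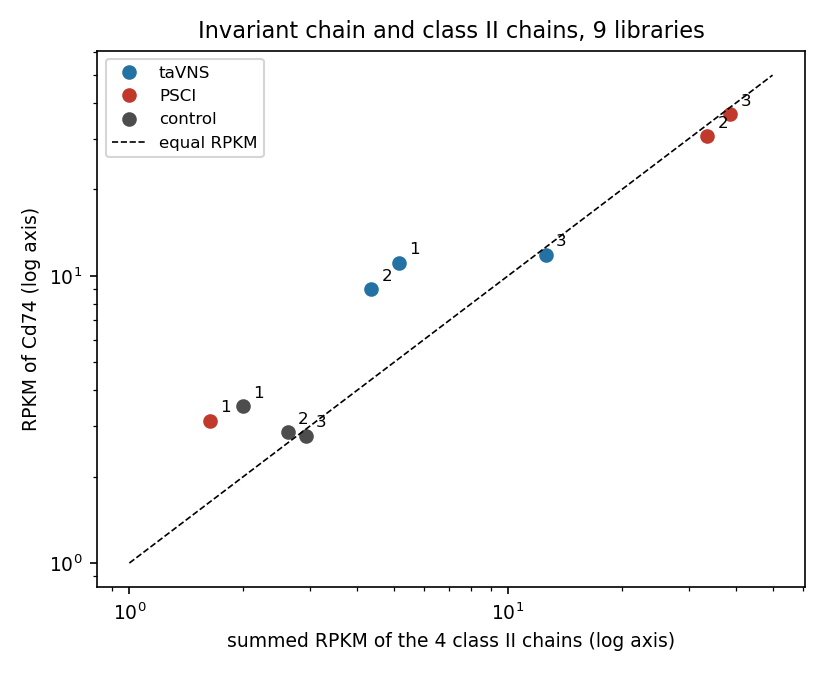
RPKM of Cd74 against the summed RPKM of RT1-Da, RT1-Db1, RT1-Ba and RT1-Bb, both on log axes, with 1 point per library and its replicate number; the dashed line marks equal RPKM. PSCI replicates 2 and 3 lie near the line at the top right, taVNS replicates 1 and 2 lie above it, and PSCI replicate 1 lies with the controls.

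The other genes of the pathway were taken from 7 lists with 35 genes, of which 33 were found and 28 tested; RT1-Hb and Ifng, the gene of interferon gamma itself, were not analysed here. In PSCI against control 8 of the 28 rose and 0 fell (median log2 change 0.397). In taVNS against PSCI 0 rose and 7 fell (median -0.291), and in taVNS against control none was called (median 0.106). Calls were unequal in direction over all 14840 genes too: 1144 rose (7.71%) and 317 fell in PSCI against control, and 125 rose and 729 fell (4.91%) in taVNS against PSCI.

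Of the 4 peptide loading genes, RT1-DMa and RT1-DMb were tested, and both rose in PSCI and were lower in taVNS than in PSCI. RT1-DMa, a chain of the peptide exchanger whose promoter is shown above, had 20.0, 20.6 and 16.8 CPM in taVNS, 37.4, 44.4 and 39.0 CPM in PSCI, and 19.3, 17.6 and 15.4 CPM in control. RT1-DMb, the partner chain, had 11.8, 13.2 and 14.3 CPM in taVNS, 29.9, 55.3 and 47.6 CPM in PSCI, and 10.8, 11.6 and 9.55 CPM in control. Unlike the 6 class II genes, both were high in PSCI replicate 1 as well, and PSCI lay above the other groups without overlap. RT1-DMa differed by 1.2 ± 0.129 in PSCI against control (adjusted p = 0.00136) and by -1.07 ± 0.128 in taVNS against PSCI (0.00383) on the log2 scale, and RT1-DMb by 2.06 ± 0.214 (0.00127) and -1.76 ± 0.211 (0.00383), all in edgeR. Each of these 4 calls was made in all 20 alternative settings. The log2 range within PSCI was 0.249 for RT1-DMa and 0.882 for RT1-DMb.

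RT1-DOa and RT1-DOb, the chains of the molecule that restrains RT1-DM, were too low to test. RT1-DOb had 6, 2 and 6 counts in taVNS, 16, 7 and 10 in PSCI, and 2, 3 and 3 in control, so that PSCI replicate 1, in which the classical chains were low, had the most. RT1-Db2, a further beta-chain gene, had 1 count in PSCI replicate 3 and 0 in every other library.

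Of the 4 genes of antigen processing, Ifi30 and Lgmn passed. Ifi30, the lysosomal thiol reductase that opens disulphide bonds of antigens, had 7.08, 9.65 and 11.3 CPM in taVNS, 20.3, 58.5 and 37.5 CPM in PSCI, and 9.39, 5.53 and 6.24 CPM in control. It rose by 2.46 ± 0.381 in PSCI (log2, adjusted p = 0.00601) and was at -2.05 ± 0.372 in taVNS against PSCI (0.0161), in edgeR. Lgmn, a lysosomal endopeptidase, rose by 1.21 ± 0.258 in PSCI (0.0200) and was at -1.18 ± 0.258 in taVNS against PSCI (0.0329), in edgeR. Ctss, the cathepsin that trims the invariant chain, did not pass in PSCI against control (-0.07 ± 0.143, adjusted p = 0.819, edgeR).

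None of the 7 genes for the RFX, NF-Y and CREB proteins was called in any comparison. The nearest to the threshold was Nfya, with 0.39 ± 0.113 in PSCI against control (log2, adjusted p = 0.0614, edgeR). Of the 7 interferon gamma genes tested, Ifngr1, the receptor chain that binds interferon gamma, and Irf8, a transcription factor of myeloid cells, passed. Irf8 had 13.7, 14.4 and 16.7 CPM in taVNS, 21.7, 59.0 and 47.5 CPM in PSCI, and 9.11, 7.01 and 6.02 CPM in control, with the 3 groups in separate ranges. It rose by 2.53 ± 0.337 in PSCI (adjusted p = 0.00342) and was at -1.52 ± 0.321 in taVNS against PSCI (0.0287), in edgeR. Ifngr1 rose by 0.74 ± 0.108 in PSCI (0.00468) and was at -0.66 ± 0.108 in taVNS against PSCI (0.0117), in edgeR.

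Of the 5 costimulation genes and CD4 T cell partners tested, Cd86 and Cd40 passed. Cd86, a costimulatory ligand, had 0.631, 1.19 and 1.57 CPM in taVNS, 2.11, 6.12 and 4.70 CPM in PSCI, and 1.03, 1.13 and 0.588 CPM in control. It rose by 2.22 ± 0.482 in PSCI (log2, adjusted p = 0.0215) and was at -1.92 ± 0.471 in taVNS against PSCI (0.0474), in edgeR. Cd40, the receptor for the T cell's CD40 ligand, rose by 2.25 ± 0.566 in PSCI (0.0380, edgeR). Cd4 did not pass (0.67 ± 0.593, adjusted p = 0.540, edgeR), and none of the 3 genes of surface turnover did.

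Ifi30, Irf8 and Ifngr1 were called in PSCI against control in all 20 alternative settings. Lgmn lost that call in 5 of them and Cd86 in 4, including the removal of any 1 control library or of PSCI replicate 3, and Cd40 in 8. In taVNS against PSCI, Ifi30 and Ifngr1 kept their calls in 17 of 20, Irf8 in 9, and Lgmn and Cd86 in 6 each.

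**Figure D4:**
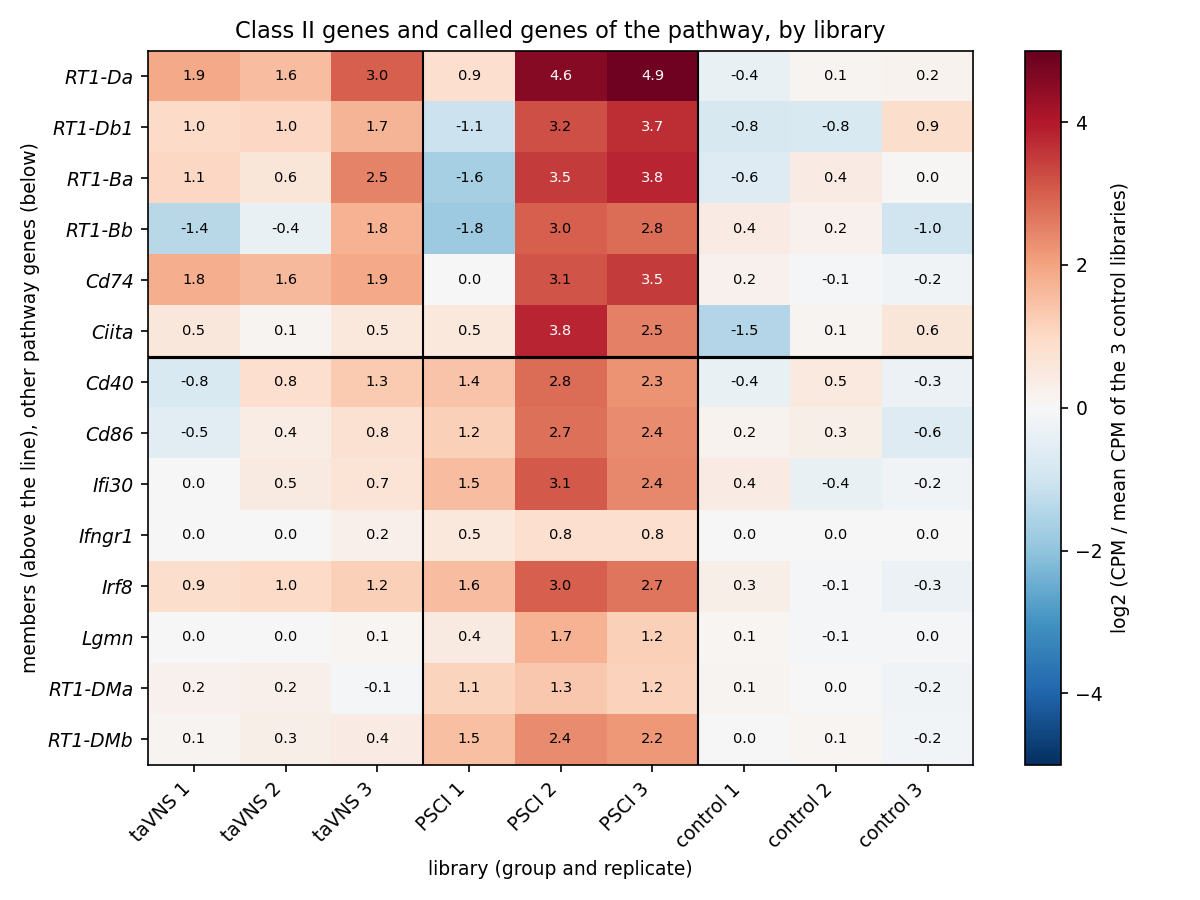
Log2 of CPM over the mean of the 3 control libraries, for the 6 class II genes (above the line) and the 8 pathway genes called in PSCI against control (below it), in each library. In the PSCI replicate 1 column 4 class II genes are at or below 0 while every pathway gene shown is above it. The pathway genes were selected by their call, which favours genes high in all PSCI libraries, and the class II genes were not. This contrast is therefore partly set by the selection.

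The marker lists for other cells, chosen with earlier results known, gave these values beside the class II genes. The summed level of 8 microglia markers was 345 to 401 CPM in taVNS, 386, 605 and 518 CPM in PSCI, and 263 to 328 CPM in control, and 4 of the 8 (Cx3cr1, Csf1r, Aif1 and Itgam) rose in PSCI. PSCI replicate 1 was above the control range for microglia markers, and within or below it for all class II genes but RT1-Da. The 7 border macrophage markers summed to 7.99, 9.16 and 22.8 CPM in taVNS, 9.07, 86.2 and 23.0 CPM in PSCI, and 6.69 to 7.93 CPM in control, with 1 of 5 tested (F13a1) higher in PSCI. F13a1 was called in 9 of 20 alternative settings, and its log2 change of 4.60 was 3.11, and not called, without PSCI replicate 2. PSCI replicate 3, with the highest class II levels of most genes, had border macrophage and meningeal sums far under those of PSCI replicate 2.

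Monocyte and neutrophil markers summed to 4.55 to 7.38 CPM in taVNS, 16.0, 25.4 and 18.4 CPM in PSCI, and 3.16 to 3.66 CPM in control, with both genes tested (Plac8 and Csf3r) higher in PSCI. Dendritic cell markers summed to 19.3 to 27.5 CPM in taVNS, 22, 49.6 and 24.9 CPM in PSCI, and 16.7 to 23.5 CPM in control, with 1 of 4 (Itgax, which other myeloid cells also express; log2 change 4.26, and 3.3 without PSCI replicate 2) higher in PSCI and Xcr1 at 0.191 CPM or less in every library. T cell markers summed to 6.08 to 16.9 CPM in taVNS, 18.6, 23.5 and 12.7 CPM in PSCI, and 3.47 to 9.18 CPM in control, with 1 of 3 tested (Cd8a) higher in PSCI, and Cd3d was at 0 in all taVNS and PSCI libraries. Some of these sums rest mostly on a single gene. Csf3r gave 11.45, 15.8 and 12.34 CPM of the monocyte and neutrophil sums in PSCI. Ccr2, S100a8, S100a9 and Ly6c were too low to test, with 5, 1, 4 and 1 counts in PSCI replicate 1. Cd3e gave 14.2 CPM in PSCI replicate 1, where Cd3g was at 0 too. Cd4 gave 8.48 and 15.4 CPM in taVNS replicates 1 and 2 and 8.63 CPM in control replicate 1. Cd8a was called in 9 of 18 alternative settings and lost its call without PSCI replicate 2, PSCI replicate 3 or any 1 control library, among others. B cells carry class II at all times; their 5 markers summed to 0.210 to 0.981 CPM in taVNS, 0.477 to 0.829 CPM in PSCI and 0.220 to 0.425 CPM in control, none could be tested, and Ms4a1 was at 0 in 7 of 9 libraries. Choroid plexus markers summed to 4.90 to 7.36 CPM in taVNS, 4.36 to 11.2 CPM in PSCI and 0.955 to 10.4 CPM in control, with none called. Red blood cell markers summed to 182 to 424 CPM in taVNS, 36.5 to 108 CPM in PSCI and 116 to 126 CPM in control, and 3 of the 4 (Hba-a1, Hbb and Alas2) were higher in taVNS than in PSCI. These calls were made in 13, 11 and 10 of 20 alternative settings, in that order, and without PSCI replicate 3 the log2 change was 2.80 for Hbb, against 2.17 with it, and 4.24 for Alas2, against 3.03. The part of these cells in the class II levels was not tested. With the meningeal-high libraries taVNS replicate 3 and PSCI replicate 2 left out together, RT1-Da was called in PSCI against control and Cd74 was not (adjusted p = 0.0721, edgeR).

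The genes whose profile over the 9 libraries was most like the mean profile of the 5 class II genes tested were Anpep, Tgfbi, Enpp3, Cd300le, Agpat2, Lilrb3, Bst1 and Col6a3, ranked among 13945 genes by the root mean square difference of centred log2 CPM. The difference was 0.53 for Anpep, an ectopeptidase, and 0.66 for Col6a3, a collagen chain, while the 5 class II genes themselves differed from their mean by 0.30 to 0.67. Anpep had 2.17, 2.87 and 4.85 CPM in taVNS, 3.0, 16.4 and 15.7 CPM in PSCI, and 1.10, 1.84 and 1.62 CPM in control. Tgfbi, a secreted matrix protein, had 5.26, 4.69 and 8.68 CPM in taVNS, 3.0, 31.0 and 17.2 CPM in PSCI, and 4.14, 4.11 and 5.22 CPM in control. Both were high in PSCI replicates 2 and 3 and several times lower in PSCI replicate 1. The likeness is a description over 9 libraries that share their groups.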

How the data were processed

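Hippocampal poly(A) RNA of 9 rats was sequenced, with 3 libraries in each of the taVNS, PSCI and control groups taken from the titles and treatment labels. The authors deposited per library a table of expected counts (estimated reads per gene) and a table of RPKM with 2 decimals. HISAT2 2.0.4, RSEM 1.2.8 and the build mRatBN7.2 are named in the submitters' processing notes; the annotation and filters are not given in the sources used here. The libraries were made with dUTP in the second strand, per the labels' protocols; whether counting used strand is not given in the sources used here. The class II locus is polymorphic between rat strains and holds related genes, so reads may be split or lost among them.

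The expected counts were rounded, filtered with filterByExpr (14840 of 18733 genes kept), scaled by TMM (trimmed mean of M values) and fitted on group over all 9 libraries in edgeR 4.0.16 (R 4.3.3), whose quasi-likelihood test was used, with 6 residual degrees of freedom and adjustment over all genes tested. A gene was called at an adjusted p under 0.05 with no fold limit. Log2 CPM used a prior count of 2. Total counts were 13747389 to 15415694; a count of 0 was read as up to 3 counts. The fit was tested on simulated counts. Replicates differed by more than sampling noise. Alternatives were DESeq2 1.42.0, limma 3.58.1 (voom, and log2 RPKM with a pseudocount of 0.1 or 1), RLE scaling, no filter, unrounded counts, the 2 groups alone, a replicate block, each library left out, and 2 libraries left out together.

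The named genes are all 6 members, every gene of the pathway lists called in a comparison, and the 8 genes of most similar profile; Ctss, Nfya, Cd4 and the marker genes were named after their values were seen, beside their lists' counts. The members and lists were chosen with earlier results of these data known.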

Additional observations from a re-analysis of the deposited data

How the results depend on the processing

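Each result was recomputed in 20 alternative settings. Of the values for single class II genes, 265 kept their direction and their side of the threshold, 24 lost a call, 9 gained one and 2 changed sign; of the counts of calls, 126 stayed within 1.5 times and 54 did not. RT1-Bb in taVNS against control ranged from -0.79 (without taVNS replicate 3) to 1.05 when 1 replicate was left out, and was -0.80 with taVNS replicate 3 and PSCI replicate 2 left out together; none of these was called. In PSCI against control, DESeq2 called 2257 genes and 4 class II genes, the 2 groups alone gave 806 and 0, limma-voom and the 3 RPKM fits called 0 class II genes, and the replicate block and the removal of both libraries called 1 each. In taVNS against PSCI the genes called were 1550 (DESeq2), 480 (limma-voom), 250 (2 groups alone), 518 (replicate block) and 361 (both libraries out), with 4 pathway genes in limma-voom, the unfiltered RPKM fit, the block and both libraries out, and 2 in the 2 groups alone. In taVNS against control DESeq2 called 9 genes, and the unfiltered RPKM fit and both libraries out 1 each. Leaving out 1 replicate at a time gave 548 to 2255 genes, 0 to 6 class II genes and 5 to 11 pathway genes in PSCI against control, 172 to 1707, 0 to 5 and 2 to 8 in taVNS against PSCI, and 0 to 1 genes in taVNS against control. The highest counts came without PSCI replicate 1, where the 6 and the 5 class II genes include Ciita, which passed the filter there through its PSCI counts. Counts under the main one by more than 1.5 times came without control replicate 1 (922), 2 (635) or 3 (548) or PSCI replicate 3 (785) in PSCI against control, and without taVNS replicate 1 (172), 2 (254) or 3 (313), PSCI replicate 3 (375) or control replicate 2 (488) in taVNS against PSCI. The cause of these shifts was not tested. RT1-Da in PSCI against control was 4.168 in the main fit and 3.401 in limma-voom. In the RPKM fits it was 3.296 with a pseudocount of 0.1 and 2.30 with a pseudocount of 1. The source of these lower values was not tested.

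The replicate numbers did not pair the samples: deviations of same-numbered libraries correlated at 0.181, 0.076 and -0.207 between PSCI and control, 0.036, -0.468 and -0.195 between taVNS and PSCI, and -0.036, 0.062 and 0.255 between taVNS and control. Under the block PSCI against control gave 1084 genes, 9 pathway genes and 1 class II gene, RT1-Da, and taVNS against control gave 0 genes. Depth limits Ciita and the chains, which had 1 to 18 counts per control library.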

Other observations

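Tmem119, a marker of resting microglia, was the 1 microglia marker of 8 that was higher in taVNS than in PSCI, with 29.4, 19.9 and 29.0 CPM in taVNS and 14.0, 14.9 and 11.8 CPM in PSCI (log2 change 0.95 ± 0.192, adjusted p = 0.0252, edgeR). Its controls had 22.8, 21.2 and 16.0 CPM. Aif1 and Itgam, which mark microglia and macrophages, were lower in taVNS than in PSCI, at -0.98 ± 0.221 (adjusted p = 0.0366) and -1.37 ± 0.301 (0.0329) on the log2 scale in edgeR. Over the 20 alternative settings Tmem119 was called in 12, Itgam in 10 and Aif1 in 7.

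Cd8a, a chain of the CD8 coreceptor, had 0.140, 0.210 and 1.02 CPM in taVNS, 0.341, 9.75 and 2.87 CPM in PSCI, and 0 counts in every control. It was highest in PSCI replicate 2, while RT1-Da, RT1-Db1, RT1-Ba and Cd74 were highest in PSCI replicate 3. Cd3e, a chain of the T cell receptor complex, had 0, 0.979 and 0.0683 CPM in taVNS, 14.2, 0.127 and 1.18 CPM in PSCI, and 0.483, 1.06 and 0 CPM in control, and so was highest in PSCI replicate 1. Cd3d and Cd3g had 0 counts in that library.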
